A study of Mus musculus with 6 samples.

Results

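The genes described here are 9 genes of megakaryocytes and platelets, taken by symbol from a table of 26452 genes measured in mouse spleen. They are Pf4, Ppbp, Vwf, Thbs1, Tubb1, Fli1, Nbeal2, Slc35d3 and Rab27b, each with 1 row in the table, and all 9 were among the 22071 genes tested. The study sequenced spleen RNA of 10-week-old male mice of 2 groups, namely 3 Was -/- knockout (KO) animals (129S6/SvEvTac-Wastm1Sbs/J), set against 3 animals of strain 129S6/SvEvTac as wild type (WT). No treatment is named for either group. Each library is 1 animal, and the labels call them KO451, KO452, KO457, WT453, WT454 and WT455.

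Megakaryocytes are large cells that shed platelets, and in adult mice they live in the spleen as well as in the bone marrow. They fill alpha granules with proteins such as chemokines and adhesive proteins, and dense granules with small molecules such as nucleotides and serotonin. Was encodes an activator of actin assembly in blood cells, and people who lack it have few and small platelets, many of which are cleared in the spleen. Spleen tissue holds RNA of resident megakaryocytes and of stored platelets, and in bulk RNA fewer cells of a type and less RNA per cell cannot be told apart.

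Between 30661759 and 38402758 reads per library were assigned to genes, so that 3 reads correspond to between 0.0781 and 0.0978 reads per 1000000 assigned reads (CPM). The targeted gene Was had log2 levels of 8.99, 8.67 and 8.68 in KO451, KO452 and KO457, against 12.02, 12.68 and 12.62 in WT453, WT454 and WT455. Its level averaged 8.78 ± 0.18 in KO and 12.44 ± 0.37 in WT libraries (SD, n = 3 each), a log2 fold change of -3.66 with an adjusted p of 0.0117 (limma, Benjamini-Hochberg), or -3.87 with an adjusted p of 0.0447 without WT453 (limma). WT453 stood apart from the other libraries. The 8 neutrophil markers summed to 12341 to 56800 CPM in KO libraries, against 91793 CPM in WT453 and 5154 and 10461 CPM in the other WT libraries. The 14 immediate early and stress genes summed to 473 to 843 CPM in KO libraries, against 2564 CPM in WT453 and 985 and 1082 CPM in the other WT libraries. The fold changes of the 9 genes are therefore also given without WT453.

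The 9 genes were not expressed alike. Per kilobase of exon, Fli1 had the highest level, at 32.1 ± 4.0 CPM in KO and 44.5 ± 12.4 CPM in WT libraries (SD, n = 3 each). Pf4 and Ppbp came next in KO libraries, at 15.5 ± 5.0 and 14.6 ± 7.0 CPM per kilobase, and their order cannot be told from that spread. In WT libraries Pf4 had 10.2 ± 3.4, Ppbp 10.4 ± 9.0 and Nbeal2 12.2 ± 5.1 CPM per kilobase, which also lie within each other's spread. Nbeal2 had 5.99 ± 1.53 and Tubb1 4.76 ± 1.44 CPM per kilobase in KO libraries, again within the spread. Thbs1 followed with 1.83 ± 0.35 in KO and 2.55 ± 0.43 in WT libraries, and Vwf with 1.19 ± 0.17 in KO and 0.717 ± 0.260 in WT libraries. Slc35d3 and Rab27b were the lowest, at 0.223 and 0.211 CPM per kilobase in KO libraries, and are measured from few reads.

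None of the 9 genes passed the test over all genes (limma with an intensity trend, two-sided, Benjamini-Hochberg adjusted p under 0.05), in which 2 of 22071 genes, or 0.00906%, were called. Adjusted p ranged between 0.382 for Vwf and 0.947 for Slc35d3. Without adjustment, limma gave 2 members a p under 0.05, Vwf and Nbeal2, where 11.0% of all genes tested had one. In the authors' deposited table the FDR of the 9 lay between 0.0925 and 0.981, so 0 of them were under 0.05, where 3.58% of all genes were. At an unadjusted p under 0.05 the authors' deposited table has 3 of the 9, namely Pf4, Vwf and Nbeal2, and 14.0% of all genes. The KO and WT values did not overlap for 2 of the 9 genes, Vwf and Nbeal2, where 19.5% of all genes tested did not overlap. Vwf was the 1 member with all KO libraries higher, as were 9.54% of all genes, and Nbeal2 the 1 member with all KO libraries lower, as were 9.94%. The log2 fold change was above 0 for 6 of the 9 genes and for 47.7% of all genes tested. The median log2 fold change of the members was 0.73 with all libraries and 0.24 without WT453, beside -0.03 and -0.01 over all genes tested.

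**Figure D1:**
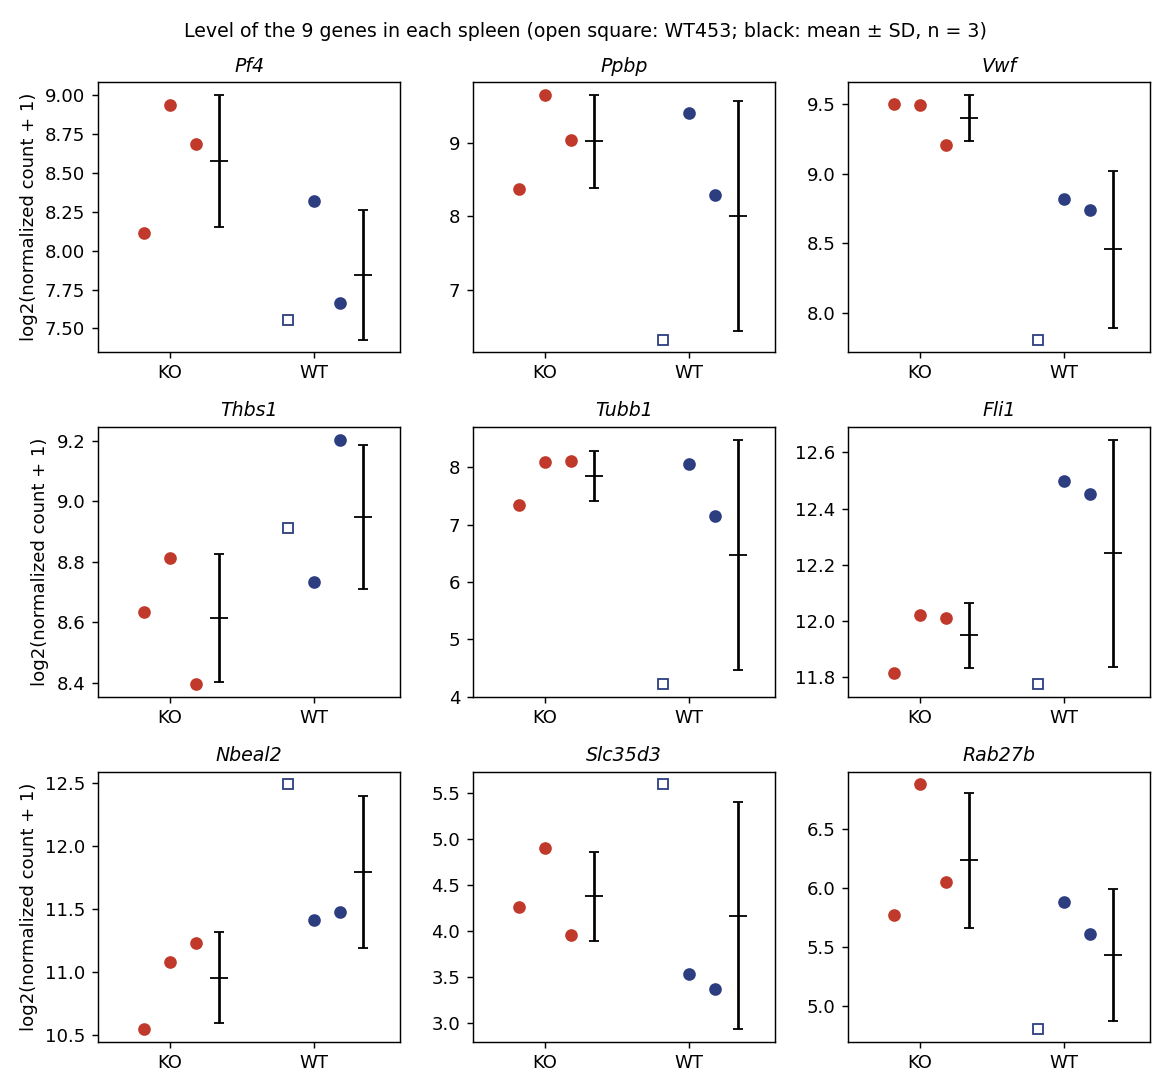
Log2(normalized count + 1) of each gene in the 3 KO libraries (red) and the 3 WT libraries (blue), with the mean ± SD of each group in black. WT453 (open square) was the lowest of the 6 libraries for 6 genes and the highest for 2, and only the Vwf and Nbeal2 panels show groups that do not overlap.

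Pf4 and Ppbp encode chemokines that are packed into alpha granules, and their transcripts are widely used as marks of megakaryocytes and platelets. They are neighbours on the plus strand of chromosome 5, with Ppbp at 90768518 to 90770063 and Pf4 at 90772435 to 90773383 (GRCm38). The gap between them is 2371 bases and holds no other annotated gene. WT453 was the lowest library for these 2 genes and for Tubb1, which is described below. For Pf4 it was only just the lowest, at a log2 level of 7.55 against 7.66 in WT455. WT453 was also the lowest for Vwf, Fli1 and Rab27b, whose start regions were not found, and for 25.8% of all genes tested. The start regions of Pf4, Ppbp and Tubb1 are printed. They run 250 bases upstream and 50 bases downstream of the RefSeq start in GRCm38.p6, all on the plus strand, at chr5:90772185-90772484 for Pf4, chr5:90768268-90768567 for Ppbp and chr2:174450345-174450644 for Tubb1. Capitals mark matches to AGATAA or TGATAA, which GATA factors can bind, and to AGGAAG or CGGAAG, which ETS factors such as Fli1 can bind, on either strand and without overlap between the GATA and ETS kinds.
Pf4: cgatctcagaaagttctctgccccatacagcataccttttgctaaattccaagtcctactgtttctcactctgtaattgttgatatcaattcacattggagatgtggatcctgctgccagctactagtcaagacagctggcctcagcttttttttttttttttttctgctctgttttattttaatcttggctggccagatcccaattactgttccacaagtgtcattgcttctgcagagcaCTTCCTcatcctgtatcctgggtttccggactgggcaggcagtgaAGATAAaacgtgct
Ppbp: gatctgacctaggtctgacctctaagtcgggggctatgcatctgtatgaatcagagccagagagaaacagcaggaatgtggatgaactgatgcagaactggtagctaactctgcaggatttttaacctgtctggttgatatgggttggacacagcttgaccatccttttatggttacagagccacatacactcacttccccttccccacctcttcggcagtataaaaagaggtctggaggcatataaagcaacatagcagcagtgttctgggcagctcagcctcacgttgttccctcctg
Tubb1: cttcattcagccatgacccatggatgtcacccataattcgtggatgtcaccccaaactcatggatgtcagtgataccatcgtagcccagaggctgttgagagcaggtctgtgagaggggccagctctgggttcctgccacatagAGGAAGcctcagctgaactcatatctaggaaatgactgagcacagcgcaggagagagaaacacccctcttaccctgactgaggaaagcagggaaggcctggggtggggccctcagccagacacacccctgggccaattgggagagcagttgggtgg
Pf4 held 1 match of the GATA kind, at bases 37 to 42 after the start, and 1 of the ETS kind, between bases -9 and -4. Tubb1 held 1 of the ETS kind, between bases -106 and -101, and Ppbp held none of either. RefSeq start regions were found for 5 of the 9 genes, the other pair being Nbeal2, with 1 ETS match between bases -9 and -4, and Slc35d3, with none. Of 32851 start regions of the same length in the genome, 18.6% held a GATA match, 46.5% an ETS match and 7.70% held both kinds. A match is a run of letters and not evidence of binding.

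Pf4 had log2 levels of 8.11, 8.94 and 8.69 in KO451, KO452 and KO457, against 7.55, 8.32 and 7.66 in WT453, WT454 and WT455. The groups overlapped, because KO451 lay below WT454, although the other KO libraries exceeded every WT library. Its log2 fold change was 0.73 ± 0.34 (SE), with a 95% interval from -0.06 to 1.53 and an adjusted p of 0.490 (limma). Without WT453 it was 0.59, with an adjusted p of 0.413 (limma).

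Ppbp had log2 levels of 8.38, 9.64 and 9.04 in the KO libraries in the same order, against 6.33, 9.41 and 8.29 in the WT libraries. WT453 was far below the rest, with 77 reads against 301 and 832 in the other WT libraries, and WT454 exceeded 2 of the 3 KO libraries. KO over WT, the log2 fold change was 1.01 ± 0.75 (SE) with all libraries (adjusted p = 0.649, limma) and 0.17 ± 0.53 without WT453 (adjusted p = 0.887, limma). Without WT454 it was 1.71, so its size depended on which WT library was kept. The log2 difference Ppbp minus Pf4 was 0.26, 0.70 and 0.35 in the KO libraries, against -1.22, 1.09 and 0.63 in the WT libraries. Pf4 and Ppbp were thus not low to the same degree in WT453.

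Tubb1 encodes the beta tubulin of megakaryocytes that forms the microtubule ring of the platelet. It lies on the plus strand of chromosome 2 at 174450695 to 174457882. Its log2 levels were 7.35, 8.09 and 8.11 in KO451, KO452 and KO457, against 4.21, 8.06 and 7.15 in WT453, WT454 and WT455. Tubb1 was the member that set WT453 apart most, with 17 reads there against 136 to 325 in the other 5 libraries. The log2 fold change was 1.38 ± 0.92 (SE), with a 95% interval from -0.79 to 3.54 and an adjusted p of 0.603 (limma). It was 0.24 without WT453, with an interval from -0.85 to 1.34, and 2.17 without WT454.

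**Figure D2:**
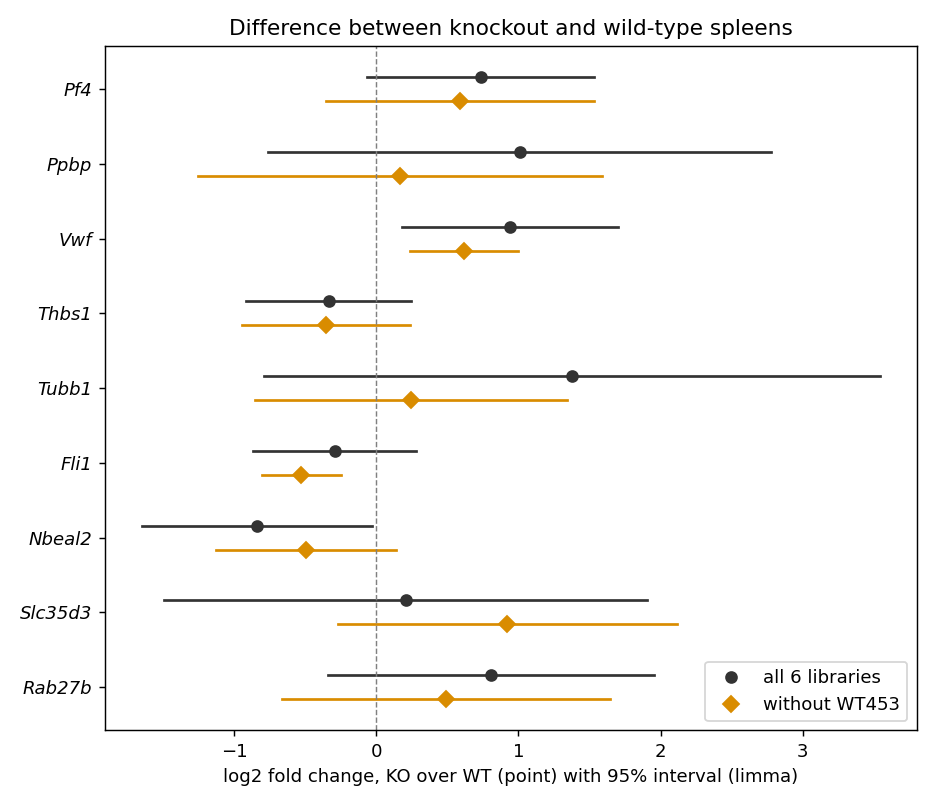
Log2 fold change of each gene, KO over WT, with its 95% interval from limma, for all 6 libraries (dark points) and without WT453 (orange diamonds). Leaving out WT453 moved Tubb1 to 0.24 with the 5 remaining libraries, against 1.38 with all 6, and Slc35d3 to 0.92, against 0.21.

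Vwf and Thbs1, which encode adhesive proteins of the alpha granule, had log2 fold changes of opposite sign. Neither gene passed the adjusted limma threshold. Vwf encodes von Willebrand factor, which tethers platelets to damaged vessel walls and is also made by endothelial cells. It lies on the plus strand of chromosome 6 at 125546774 to 125686679. Vwf had log2 levels of 9.50, 9.49 and 9.20 in KO451, KO452 and KO457, against 7.81, 8.82 and 8.74 in WT453, WT454 and WT455. Every KO library was above every WT library. Vwf averaged 19.1 ± 2.7 CPM in KO and 11.5 ± 4.2 CPM in WT libraries (SD, n = 3 each). For Vwf the log2 fold change was 0.94 ± 0.32 (SE), with limma p of 0.0217 before and 0.382 after adjustment. Without WT453 it was 0.62 ± 0.14 (SE), with limma p of 0.00994 before and 0.228 after adjustment. Without WT453, 18.2% of all genes tested had an unadjusted p under 0.05.

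Because endothelial cells also make Vwf, 15 endothelial markers were read beside it. Of the 14 that were tested, 11 had a positive log2 fold change, with a median of 0.45, or 0.53 without WT453, and 0 passed the adjusted limma threshold while 1, Eng, had an unadjusted p under 0.05. Their summed level was 191 to 278 CPM in KO and 180 to 270 CPM in WT libraries, so these sums overlapped. None of the 15 was at 0 in all libraries, and Emcn was too low to be tested. Tek, Robo4 and Cldn5, with positive log2 fold changes, and Sox18, with a negative one, had at most 28 reads in any library. Stab2, a receptor of sinusoidal endothelium, averaged 75.5 CPM in KO and 43.2 CPM in WT libraries, with a log2 fold change of 1.07. Cdh5, an adhesion protein of endothelial junctions, averaged 2.59 CPM in KO and 2.87 CPM in WT libraries, with a log2 fold change of 0.02. CPM means and fold changes rest on different scalings, so their directions can differ. Pecam1, the marker with the highest level, went the other way, at 99.2 CPM in KO and 154 CPM in WT libraries. Its log2 fold change was -0.47 (adjusted p = 0.537, limma), or -0.70 without WT453. The part of these markers in the Vwf values was not tested.

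Thbs1 encodes thrombospondin, an adhesive protein of alpha granules that is also made by monocytes and stromal cells. It lies on the plus strand of chromosome 2 at 118111876 to 118127133, where a long noncoding RNA gene on the other strand overlaps it, and without a stated strand setting their reads cannot be told apart. Thbs1 had log2 levels of 8.64, 8.81 and 8.39 in KO451, KO452 and KO457, against 8.91, 8.73 and 9.20 in WT453, WT454 and WT455. The groups overlapped through KO452 and WT454. For Thbs1 the log2 fold change was -0.33 ± 0.25 (SE) and -0.35 without WT453, with adjusted p of 0.645 and 0.429 (limma). The 95% interval with all libraries, from -0.92 to 0.25, holds 0.

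Nbeal2 encodes a large protein that megakaryocytes need to form and keep alpha granules, and its loss causes gray platelet syndrome in people. It lies on the minus strand of chromosome 9 at 110624789 to 110654161, with the microRNA gene Mir8107 inside it. Its log2 levels were 10.55, 11.09 and 11.23 in KO451, KO452 and KO457, against 12.49, 11.41 and 11.48 in WT453, WT454 and WT455. Every KO library was below every WT library. The log2 fold change was -0.84 ± 0.34 (SE), with limma p of 0.0434 before and 0.442 after adjustment. Without WT453, where Nbeal2 was highest, it was -0.49 with limma p of 0.0984 before and 0.341 after adjustment. Neutrophil markers were also highest in WT453, as given above. In WT454 and WT455 these markers summed to 5154 and 10461 CPM, below the 12341 to 56800 CPM of the KO libraries. Nbeal2 in WT454 and WT455 was above every KO library. The part of these markers in the Nbeal2 values was not tested. Nbeal2 averaged 57.2 ± 14.6 CPM in KO and 117 ± 49 CPM in WT libraries (SD, n = 3 each).

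Fli1 encodes an ETS transcription factor that megakaryocytes need to mature, and it is also made in lymphocytes, other blood cells and endothelium. It lies on the minus strand of chromosome 9 at 32422204 to 32542861. Several small gene models overlap it, and the reads of the one with the most, Gm37474, came to 0.684% of those of Fli1. Fli1 had log2 levels of 11.82, 12.02 and 12.01 in KO451, KO452 and KO457, against 11.77, 12.50 and 12.45 in WT453, WT454 and WT455. WT453 lay below every KO library and the other WT libraries lay above them. The log2 fold change was -0.29 ± 0.24 (SE, adjusted p = 0.694, limma). Without WT453 it was -0.53 ± 0.10 (SE), with limma p of 0.00538 before and 0.221 after adjustment.

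Lymphocyte markers were read beside Fli1. All 8 B cell markers and all 8 T cell markers had negative log2 fold changes, with medians of -0.64 and -0.59, or -1.13 and -0.96 without WT453. The B cell markers summed to 1335 to 2802 CPM in KO and 1381 to 4763 CPM in WT libraries, and the T cell markers to 433 to 894 CPM in KO and 566 to 1322 CPM in WT libraries. In WT453 both lists were low, at 1381 and 566 CPM. None of these 16 genes was at 0 in all libraries or passed the adjusted limma threshold, and 1 had an unadjusted p under 0.05. Without WT453, 8 of the 8 B cell markers and 6 of the 8 T cell markers had a limma p under 0.05 before adjustment, and 0 did after it. Their part in the Fli1 values was not tested.

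Slc35d3 and Rab27b act on dense granules. Slc35d3 encodes a membrane transporter without which mouse platelets lack normal dense granules, and Rab27b encodes a small GTPase that mouse platelets use to pack and release them. Slc35d3 lies on the minus strand of chromosome 10 at 19847916 to 19851459 and Rab27b on the minus strand of chromosome 18 at 69979131 to 70141605. A processed pseudogene overlaps Rab27b on the other strand. Slc35d3 had 17, 29 and 14 reads in KO451, KO452 and KO457, against 46, 13 and 9 reads in WT453, WT454 and WT455. It was highest in WT453, and the other WT libraries were below all KO libraries in normalized level. Its log2 fold change was 0.21 ± 0.72 (SE, adjusted p = 0.947, limma) with all libraries and 0.92 ± 0.44 without WT453 (adjusted p = 0.343, limma). It was -0.06 without KO452, -0.11 without WT454 and -0.19 without WT455, so that its direction depended on which library was left out.

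Rab27b had 50, 117 and 63 reads in the KO libraries, against 26, 71 and 46 reads in the WT libraries, in the same order. Its log2 levels were 5.77, 6.88 and 6.05 in KO libraries, against 4.80, 5.88 and 5.61 in WT libraries. The groups overlapped, with KO451 below WT454 and KO452 above all others. For Rab27b the log2 fold change was 0.81 ± 0.49 (SE, adjusted p = 0.556, limma), or 0.49 without WT453. Intervals for both genes were wide, from -1.49 to 1.91 for Slc35d3 and from -0.34 to 1.95 for Rab27b.

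To compare the genes by their pattern over the 6 libraries, each was centred on its own mean log2 level. WT453 was the lowest library for Pf4, Ppbp, Vwf, Tubb1, Fli1 and Rab27b and the highest for Nbeal2 and Slc35d3, so that 8 of the 9 had an extreme there. Over all genes tested WT453 was an extreme in 57.4% of genes, as the lowest in 25.8% and as the highest in 31.7%. The most alike of the 36 pairs were Pf4 and Rab27b, with a root mean square difference of 0.26 on the centred log2 scale over the 6 libraries. Thbs1 and Fli1 differed by 0.30, Vwf and Rab27b by 0.34, Pf4 and Vwf by 0.39 and Ppbp and Tubb1 by 0.40. The least alike were Tubb1 and Slc35d3, at 1.98. A small difference between genes with little variation, such as Thbs1 and Fli1, is easier to reach than one between genes that vary widely.

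**Figure D3:**
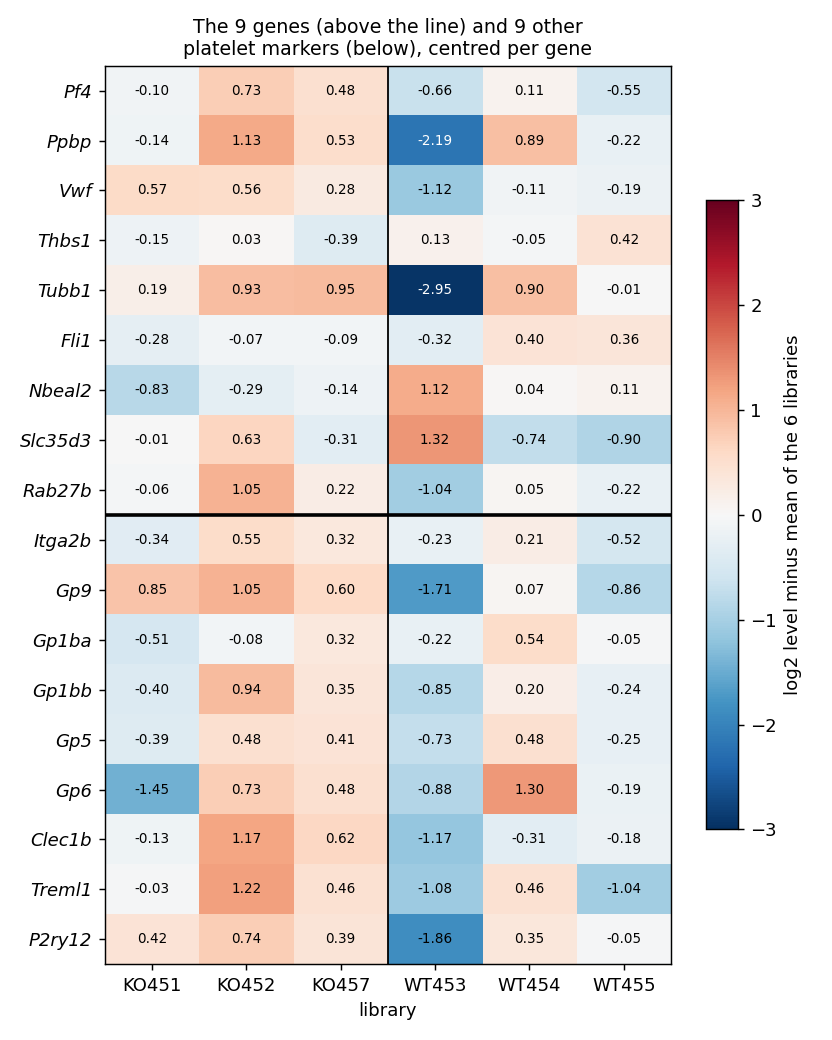
Log2 level of each gene minus its mean over the 6 libraries, for the 9 genes above the line and, below it, 9 of the 10 other platelet markers, leaving out the 1 that is also on the list for megakaryocyte transcription and growth, with KO libraries on the left. Tubb1 at -2.95 and Ppbp at -2.19 in WT453 are the lowest cells, and WT453 is red for Nbeal2 and Slc35d3.

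The same measure was used to find the 3 genes nearest to each member among 11230 protein-coding genes with a mean normalized count of at least 50. Near Pf4 lay Rab11fip5 and Gpt2, at 0.13 each. The nearest to Ppbp was Alox12, the lipoxygenase of platelets, at 0.22, followed by Cavin2 at 0.27 and H2-M2 at 0.32. Tubb1 was nearest to Usp45 at 0.29, Alox12 at 0.32 and mt-Nd4l at 0.33. Vwf was nearest to Mpp6, Lipo3 and Slc12a2, each at 0.10, and Rab27b to Zfp703 at 0.14, Fcgr1 at 0.15 and Anpep at 0.17. Nbeal2 was nearest to Def6 at 0.08, Igfbp4 at 0.09 and Atg16l2 at 0.10, and Slc35d3 to Ap5b1 at 0.20, Tpm2 at 0.23 and Col4a3bp at 0.24. Fli1 was nearest to Sirpb1c at 0.06, Elovl5 at 0.06 and Dlg3 at 0.07, and Thbs1 to Ttl at 0.07, Aldh4a1 at 0.09 and Zmym5 at 0.10. With 6 libraries, of which WT453 is often the extreme, these likenesses describe the libraries only.

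For comparison, 10 other markers of megakaryocytes and platelets were read beside the 9 genes. All 10 were detected in every group, and their summed level was 65.1 to 133 CPM in KO and 40.2 to 85.6 CPM in WT libraries, so that the groups overlapped. The 9 genes summed to 190 to 276 CPM in KO and 311 to 342 CPM in WT libraries, with Fli1 and Nbeal2 at the highest CPM. Averaged over the 10 markers, the centred log2 level was lowest in WT453, at -0.93. Of the 9 genes, 6 were also lowest there, while Nbeal2 and Slc35d3 were highest there. The 9 genes thus did not follow these markers as a set. Of the 10, 8 had a positive log2 fold change, with a median of 0.72, or 0.35 without WT453. None of the 10 passed the adjusted limma threshold and 2, Gp9 and Clec1b, had an unadjusted p under 0.05. Gp9, a subunit of the platelet receptor for von Willebrand factor, was the 1 marker whose FDR in the authors' deposited table, 0.0272, was under 0.05. Its log2 levels were 8.46, 8.66 and 8.21 in KO451, KO452 and KO457, against 5.90, 7.68 and 6.76 in WT453, WT454 and WT455. Every KO library was above every WT library. Its limma log2 fold change was 1.66 ± 0.47 (SE), with an adjusted p of 0.349, and 1.22 without WT453.

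Itga2b, the integrin chain that megakaryocytes make early, had a log2 fold change of 0.35 (adjusted p = 0.715, limma). Gp1ba and Gp6, receptors for von Willebrand factor and collagen, were the 2 markers with negative log2 fold changes, at -0.19 and -0.15.

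Among other cargo of alpha granules, 9 of 14 genes had a positive log2 fold change, with a median of 0.04, and 0 passed the adjusted limma threshold or an unadjusted p under 0.05. The 3 with the highest levels were Srgn, a granule proteoglycan, Tgfb1, a growth factor, and F13a1, a clot-stabilizing enzyme. Srgn averaged 370 CPM in KO and 578 CPM in WT libraries, with a log2 fold change of -0.48. Tgfb1 averaged 257 CPM in KO and 273 CPM in WT libraries, with a log2 fold change of 0.05. F13a1 averaged 101 CPM in KO and 110 CPM in WT libraries, with a log2 fold change of 0.02. CPM means and fold changes rest on different scalings, so their directions differ for Tgfb1 and F13a1. These 3 are also made by other blood cells. Among other genes of alpha granule formation and release, 7 of 11 had a positive log2 fold change, with a median of 0.09, and 0 passed either threshold. Vamp8, Stxbp2 and Rab27a, which serve granule fusion, had log2 fold changes of 0.29, 0.004 and -0.18. Without WT453 the medians of the 2 lists were 0.49 and 0.31.

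Dense granule genes other than the members had a positive log2 fold change in 9 of 17, with a median of 0.04, or -0.13 without WT453. None passed the adjusted limma threshold, and 2 had an unadjusted p under 0.05. One of these, Rab38, a GTPase of lysosome-related organelles, is listed at an FDR of 2.66e-04 in the authors' deposited table. Rab38 had log2 levels of 8.67, 8.49 and 8.54 in KO451, KO452 and KO457, against 7.53, 7.19 and 7.53 in WT453, WT454 and WT455. Every KO library was above every WT library. Its limma log2 fold change was 1.15 ± 0.25 (SE), with an adjusted p of 0.344, and 1.21 without WT453. The other was Lyst, a trafficking protein that is mutated in Chediak-Higashi syndrome, at a log2 fold change of -0.80 (adjusted p = 0.378, limma). The adaptor subunits Ap3d1 and Ap3b1 had log2 fold changes of -0.24 and 0.10.

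Of the other genes of the proplatelet cytoskeleton, 3 of 9 had a positive log2 fold change, with a median of -0.13, or 0.06 without WT453. None passed the adjusted limma threshold and 1, the actin-nucleating formin Diaph1, had an unadjusted p under 0.05. Myh9, the non-muscle myosin of platelets, averaged 890 CPM in KO and 1255 CPM in WT libraries, a log2 fold change of -0.35 (adjusted p = 0.525, limma). Flna, an actin crosslinker, and Tln1, an integrin activator, had log2 fold changes of -0.13 and -0.07. Actin and myosin genes of this list are made in most spleen cells.

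The list of genes for megakaryocyte transcription and growth had positive log2 fold changes in 9 of its 12 genes other than Fli1, with a median of 0.17, or 0.73 without WT453. None passed the adjusted limma threshold and 4 had an unadjusted p under 0.05. In the authors' deposited table the FDR of these 4 was 4.61e-04 for Gata1, 6.51e-04 for Gfi1b, 0.0264 for Tal1 and 0.00826 for Zfpm1. Their limma log2 fold changes were 1.79 for Gata1, 1.97 for Gfi1b, 2.52 for Tal1 and 1.63 for Zfpm1, with adjusted p between 0.344 and 0.355. Gata1 had log2 levels of 12.49, 10.93 and 11.40 in KO451, KO452 and KO457, against 10.10, 9.30 and 10.04 in WT453, WT454 and WT455. KO451 was the highest library for each of these 4 genes. Etv6, an ETS factor, and Nfe2, which drives late steps of platelet formation, had log2 fold changes of 0.23 and -0.75.

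Gata1, Gfi1b, Tal1 and Zfpm1 are also made in red cell precursors, whose 12 markers all had positive log2 fold changes, with a median of 2.86, or 2.45 without WT453. None of the 12 passed the adjusted limma threshold, while 12 had an unadjusted p under 0.05, and 10 had an FDR under 0.05 according to the authors' deposited table. Among those 10 were Klf1, Epb42, Slc4a1, Car2, Hemgn, Ermap, Rhag, Epor and Trim10, with log2 fold changes between 1.74 for Epor and 3.20 for Trim10. Their summed level was 2929 to 11377 CPM in KO and 557 to 1339 CPM in WT libraries, and it was highest in KO451. None of them was at 0 in all libraries. Their part in the values of the 4 transcription factors was not tested. Among the KO libraries, the log2 level of Vwf was nearly the same in KO451 and KO452, at 9.50 and 9.49. In CPM Vwf was higher in KO452, at 21.5 against 19.5 in KO451. Pf4, Ppbp, Tubb1, Rab27b, Fli1 and Nbeal2 were lowest in KO451 among the KO libraries.

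**Figure D4:**
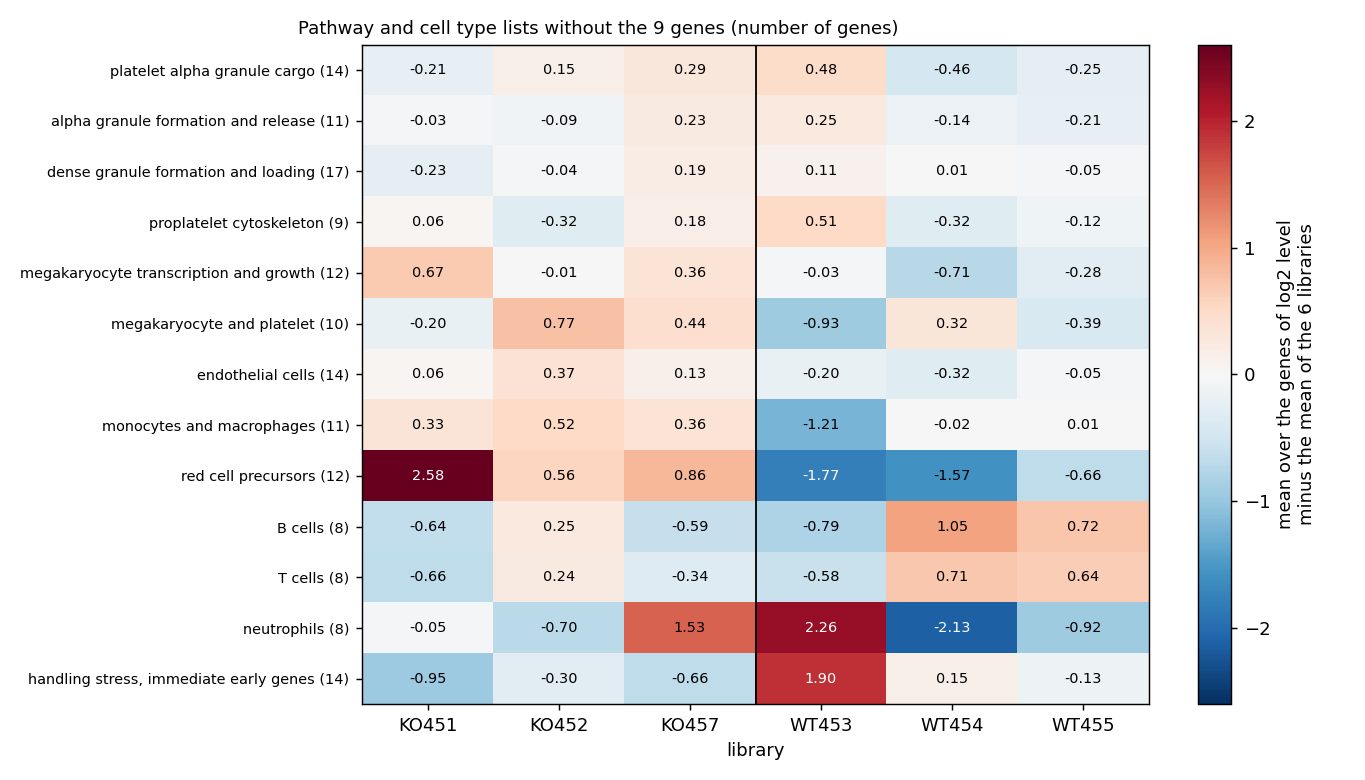
Mean over the genes of each list of the log2 level minus the mean of the 6 libraries, for pathway and cell type lists without the 9 genes, with KO libraries on the left. Platelet markers range between -0.93 in WT453 and 0.77 in KO452, red cell precursor markers reach 2.58 in KO451, and neutrophil markers reach 2.26 in WT453.

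Monocyte and macrophage markers, read beside Thbs1, had positive log2 fold changes in 10 of 11 genes, with a median of 0.79, or 0.46 without WT453. Their summed level was 6229 to 8146 CPM in KO and 3995 to 5717 CPM in WT libraries, with none at 0 in all libraries. None passed the adjusted limma threshold and 4 had an unadjusted p under 0.05, among them Adgre1, Spic and Cd5l. Cd5l had an FDR of 8.34e-05 in the authors' deposited table. Thbs1 lay in the opposite direction, at -0.33. Neutrophil markers had positive log2 fold changes in 7 of 8 genes, with a median of 0.63, or 1.74 without WT453, and 0 had an unadjusted limma p under 0.05. The 14 immediate early and stress genes had negative ones in 13, with a median of -0.98, or -0.57 without WT453, and summed to 473 to 843 CPM in KO and 985 to 2564 CPM in WT libraries. Of these 14 genes 0 passed the adjusted limma threshold, and Fos, Dusp1, Zfp36, Hspa1b and Klf2 had an unadjusted p under 0.05. The authors' deposited table gives an FDR under 0.05 to Zfp36, Hspa1a, Hspa1b and Klf2. The part of these genes in the values of the 9 members was not tested.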

How the data were processed

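Total RNA of the spleen was sequenced from 3 KO and 3 WT mice and the libraries were made from mRNA, per the labels' protocols. Without stating what each did, the submitters' processing notes list STAR 2.5.3a, FastQC 0.11.5, DESeq, StringTie 1.3.1c and the build GRCm38. The counting step, its annotation, its filters and its strand setting are not stated there.

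Per the file headers, the authors deposited log2 values for every gene and library, with group means and, for KO against WT, the change with its p-value and FDR. On the linear scale each value is a size-factor-scaled read count plus 1: in every library 100% of nonzero values gave whole reads within a tolerance of 0.001, and CPM were computed from those reads. How the deposited p-value was computed is not stated. KO column names end in a suffix that WT names lack. What it marks is not stated, and a difference in processing and genotype cannot be told apart.

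The deposited log2 values were tested with limma 3.58.1 in R 4.3.3, with an intensity trend and no covariate, over 22071 genes with a mean normalized count of at least 1, and p-values were adjusted by Benjamini-Hochberg, calling genes under 0.05. Fold changes on this scale understate changes of low genes. Positions and exon lengths came from GENCODE M21, where 26404 of 26452 identifiers were found, and start regions from RefSeq. The test was checked on simulated data with the same dispersion for every gene and no library set apart. That check does not cover a library such as WT453. No 2 libraries agreed within sampling noise. Floors cover counting error only, and p-values rest on the spread among 3 animals a group. The labels state no batch.

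The members, the lists and the tests were chosen with earlier results of these data known. Named were the members, Was, list genes past a threshold of limma or of the authors' FDR, the 3 most abundant genes of each pathway list, and the 3 nearest genes of each member. Itga2b, Gp1ba, Gp6, Clec1b, Stab2, Cdh5, Pecam1, Eng, Adgre1, Spic, Fos, Dusp1, Diaph1 and Nfe2 fall outside this rule or were singled out after their values were seen. Alternatives were other pseudocounts, filters and scalings, limma voom, a threshold of 0.01 and each library left out. Some genes of the lists are not reported here by name.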

Additional observations from a re-analysis of the deposited data

How the results depend on the processing

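No member passed the adjusted limma threshold in any of 12 alternative settings, which were a pseudocount of 0.1, quantile normalization, leaving out the filter or raising it to 1 CPM, log2(CPM + 0.1), limma voom and each library left out. Adjusted p of members ranged between 0.221 and 0.989 there. Of 107 values, 104 kept the direction given above. The exceptions were those of Slc35d3 without KO452 (-0.06), without WT454 (-0.11) and without WT455 (-0.19), and the cause was not tested. Without WT453 it was 0.92. Slc35d3 could not be tested with the filter at 1 CPM. The log2 fold change ranged between 0.24 and 2.17 for Tubb1, 0.17 and 1.71 for Ppbp, 0.55 and 0.97 for Pf4, 0.62 and 1.12 for Vwf and 0.48 and 1.04 for Rab27b, and between -1.03 and -0.49 for Nbeal2, -0.53 and -0.16 for Fli1 and -0.48 and -0.21 for Thbs1. Values as log2(CPM + 0.1), which change both the scaling and the pseudocount, moved the median log2 fold change of all genes to -0.15, against -0.03, and every member moved down with it.

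Over all genes, 2 were called, against 1 by limma voom and 0 at a threshold of 0.01. With 1 library left out the count lay between 0 and 2, with 0 for each library except WT453. The cause was not tested. No paired analysis was possible because the groups share no animal numbers. Slc35d3, at 9 to 46 reads per library, is limited by depth.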
